A study of Mus musculus with 2 samples.

Results

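The genes described here are the 10 genes of the p62 and NRF2 oxidative stress pathway: Sqstm1, Nfe2l2, Keap1, Bach1, Gclc, Gclm, Txnrd1, Srxn1, Hmox1 and Nqo1. They are a list of symbols taken for their known roles, with no threshold on measured values, and each matched 1 of the 55536 annotated genes in the deposited tables. RNA was measured in macrophages grown from the bone marrow of C57BL/6J mice (bone marrow-derived macrophages, primary cells) that had been given lipid A (100 ng/ml) 75 min earlier. Lipid A is the part of bacterial lipopolysaccharide that binds Toll-like receptor 4. The RNA came from the chromatin fraction, where nascent and unspliced transcripts are enriched, and was depleted of ribosomal RNA before total RNA-seq. All samples belong to 1 group with 2 libraries, labelled as biological replicates of the same donor, with 250 ng of RNA for replicate 1 and 500 ng for replicate 2. No genetic change is given in the labels, and untreated cells and other times were not analysed here, so the values below are levels after lipid A and show no response to it. Nothing states that the cultures came from separate mice, so each SD covers the spread between these libraries, which may be technical.

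NRF2, the protein of Nfe2l2, is a transcription factor that pairs with small MAF proteins and binds antioxidant response elements in genes of glutathione, thioredoxin, heme and quinone metabolism. In resting cells KEAP1 brings NRF2 to the CUL3 ubiquitin ligase for degradation, and oxidants or electrophiles that modify KEAP1 cysteines stop this. p62, the protein of Sqstm1, is a receptor of selective autophagy that also binds KEAP1, and BACH1 is a heme-binding repressor that competes with NRF2 for the same elements. In macrophages the pathway is known for limiting oxidative damage and for restraining inflammatory gene expression.

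The estimated counts on annotated genes summed to 21453617 in replicate 1 and to 29638814 in replicate 2. A count of 0 in a library allows a level of up to 3 counts, which is 0.140 CPM (counts scaled to library size) in replicate 1 and 0.101 CPM in replicate 2, for counting error only. All 8 macrophage markers examined (Csf1r, Adgre1, Cd68, Itgam, Spi1, Lyz2, Mertk and Cd14) were at 1 TPM or more in both libraries. TPM, a level per transcript length relative to everything in the table, is the scale of every level below unless stated. In the gene tables none of the 20 markers of T and NK, B, neutrophil, erythroid and mast, or stromal and endothelial cells reached 1 TPM in both libraries, and the summed level of each such list was at most 1.09 TPM in either library, against 307 and 489 TPM for the macrophage list. In the second quantification, made by the authors from the reads and a transcript index, Cd3d of the T cell list was at 13.0 and 28.8 TPM in replicates 1 and 2, Pecam1 of the endothelial list at 3.36 and 8.67 TPM and Ms4a1 of the B cell list at 1.03 and 1.87 TPM. Each of the other markers was below 1 TPM there in at least 1 library. In bulk RNA of this kind fewer cells of a type and less RNA per cell cannot be told apart.

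The sequences just upstream of 3 of these genes are shown with matches to short patterns for NRF2 (antioxidant response element), AP-1 and NF-kB (kappa B) marked. A match to such a pattern does not show a site that these factors read. RefSeq promoter windows of 300 bases (GRCm38.p6; 250 before to 50 after a start) were found for 8 of the 10 genes, Hmox1 and Gclc having none in the table used. The pattern TGANNNNGC is a loose form of the antioxidant response element core, with every base between TGA and GC left free. Searched on both strands, it was in windows of 5 of the 8 genes (Nfe2l2, Srxn1, Gclm, Keap1 and Txnrd1), and 41.3% of all 32817 windows in the table hold it. Srxn1 had 4 matches, the most of any window here, and it alone held the AP-1 site TGANTCA (2 matches, 1 of them inside an antioxidant response element match), which is in 7.81% of all windows. In the stretch below, which ends at the base before the Srxn1 start, capitals mark both motifs. In the Txnrd1 stretch, which ends at the base before the second group of starts, they mark the loose antioxidant response element core. The Sqstm1 stretch is the whole gap between Sqstm1 and its divergent neighbour Mgat4b, and capitals mark the kappa B frame, GGG and CC with any 5 bases between them (both strands, with overlapping matches).
Srxn1, chr2:152105274-152105515, plus strand: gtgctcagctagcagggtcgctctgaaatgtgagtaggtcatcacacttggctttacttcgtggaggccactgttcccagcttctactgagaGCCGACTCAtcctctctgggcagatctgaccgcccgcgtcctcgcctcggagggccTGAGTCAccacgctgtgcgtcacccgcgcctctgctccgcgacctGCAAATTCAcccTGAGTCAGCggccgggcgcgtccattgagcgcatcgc
Txnrd1, chr10:82859009-82859178, plus strand: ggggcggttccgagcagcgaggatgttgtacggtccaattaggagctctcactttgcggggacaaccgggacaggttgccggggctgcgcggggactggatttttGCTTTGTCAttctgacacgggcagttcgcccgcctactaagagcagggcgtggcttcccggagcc
Sqstm1, chr11:50210828-50210889, minus strand: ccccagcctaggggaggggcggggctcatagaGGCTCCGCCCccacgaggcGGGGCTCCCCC

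The single antioxidant response element matches of Nfe2l2, Gclm and Keap1, all of them upstream of the RefSeq start, are printed with their flanks so that the letters can be compared between genes; the core is in capitals.
Nfe2l2, chr2:75704880-75704913, minus strand, 240 bases upstream: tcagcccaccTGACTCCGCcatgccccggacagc
Gclm, chr3:122245408-122245446, plus strand, 134 bases upstream: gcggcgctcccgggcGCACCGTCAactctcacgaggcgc
Keap1, chr9:21239370-21239408, minus strand, 61 bases upstream: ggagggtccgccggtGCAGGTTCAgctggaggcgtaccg
The match of Nfe2l2 reads as the core is written, and those of Gclm, Keap1 and Txnrd1 are its reverse complement. Read as the core, the base after TGA is C for Nfe2l2, Gclm and the printed Txnrd1 match, and A for Keap1. The kappa B frame was in windows of 6 of the 8 genes and in 50.8% of all windows, with 5 matches at Bach1 and 4 at Sqstm1. These windows were rich in G and C (69.7% at Bach1 and 63.3% at Sqstm1, against a median of 52.7% over all windows), and the frame itself is made of G and C. A match is a description of letters; binding was not measured, and sequence beyond these windows was not searched.

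The 10 genes spanned the range from among the highest protein-coding levels on chromatin to nearly nothing. Sqstm1 (p62) and Txnrd1 (cytosolic thioredoxin reductase) lay above the 95th percentile of expressed protein-coding genes (95.6 TPM) and together held 91.4% of the summed TPM of the 10 genes in replicate 1 and 79.1% in replicate 2. The regulators Nfe2l2 and Bach1 followed at nearly equal levels. Srxn1, Gclc, Hmox1, Gclm and Nqo1, and the NRF2 adaptor gene Keap1, were all below the median of expressed protein-coding genes, 8.17 TPM (quartiles 3.56 and 21.4 TPM). The genes of glutathione, thioredoxin, heme and quinone metabolism were thus split, with Txnrd1 very high and the others low. In all, 8 of 10 genes reached 1 TPM in both libraries, where 34.6% of the 22015 nuclear protein-coding genes did, and Gclm and Nqo1 did not. The median of the 10 mean levels was 3.74 TPM (2.56 TPM over replicate 1 and 4.93 TPM over replicate 2). In order of mean TPM the genes were Sqstm1, Txnrd1, Nfe2l2, Bach1, Srxn1, Keap1, Gclc, Hmox1, Gclm and Nqo1. The ranges of the 2 libraries overlapped between Nfe2l2 and Bach1, Srxn1 and Keap1, Keap1 and Gclc, and Gclc and Hmox1, so these neighbours in the order did not differ beyond their spread. Within each library, however, Srxn1 exceeded Keap1 and Keap1 exceeded Gclc, while Nfe2l2 and Bach1, and Gclc and Hmox1, were ordered differently in replicates 1 and 2.

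**Figure D1:**
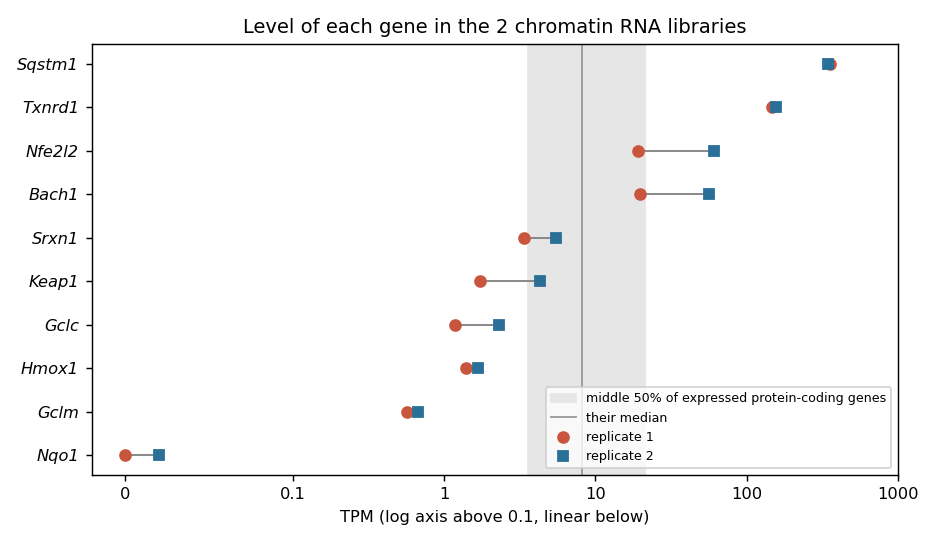
Level of each of the 10 genes in TPM (x axis, logarithmic above 0.1 and linear below) in replicate 1 (circles) and replicate 2 (squares), ordered by mean; the grey band is the middle 50% of expressed protein-coding genes and the grey line their median, 8.17 TPM. Sqstm1 and Txnrd1 lay far to the right of the band with nearly equal values in both libraries, and Gclc, Hmox1, Gclm and Nqo1 lay to its left.

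Sqstm1 encodes p62, which carries ubiquitin-tagged cargo to autophagosomes, holds KEAP1 and also scaffolds NF-kB signalling. It lies on chromosome 11 (ENSMUSG00000015837.15, 50199366 to 50210827, minus strand, mm10, the build of all positions below). Sqstm1 stood at 356 TPM in replicate 1 and 344 TPM in replicate 2 (350 ± 8.22 TPM, SD, n = 2), on 8609 and 9884 counts. This was rank 48 among all nuclear protein-coding genes and the percentile 99.4 of the expressed ones. Within a library its TPM was 18.6 times that of Nfe2l2 in replicate 1 and 5.64 times in replicate 2, with nearly equal Sqstm1 levels and unequal Nfe2l2 levels between the libraries. The deposited bounds on the Sqstm1 level, whose confidence level is not given, were 330 to 354 TPM in replicate 1 and 321 to 342 TPM in replicate 2, so the point value lay above its own upper bound in both. The same held for Txnrd1 in both libraries and for Nfe2l2 and Bach1 in replicate 2.

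The core regulators were unequal. Nfe2l2 (NRF2, ENSMUSG00000015839.6; chromosome 2, 75675513 to 75704641, minus strand) stood at 19.1 TPM in replicate 1 and 61.0 TPM in replicate 2 (40.0 ± 29.6 TPM, SD, n = 2), and the deposited bounds, 17.2 to 19.6 TPM and 56.6 to 60.9 TPM, were far apart. Bach1, the repressor gene (ENSMUSG00000025612.5; chromosome 16, 87698945 to 87733346, plus strand), stood at 19.8 and 56.8 TPM in replicates 1 and 2 (38.3 ± 26.2 TPM, SD, n = 2). Both were higher in replicate 2, and their ratio differed little: the TPM of Bach1 was 1.04 times that of Nfe2l2 in replicate 1 and 0.931 times in replicate 2. Keap1, the substrate adaptor that presents NRF2 to the ligase (ENSMUSG00000003308.15; chromosome 9, 21229730 to 21239361, minus strand), was far lower, at 1.73 TPM in replicate 1 and 4.33 TPM in replicate 2 (3.03 ± 1.84 TPM, SD, n = 2). It rested on 97 and 282 counts, with deposited bounds of 1.10 to 3.32 TPM and 3.22 to 6.11 TPM that overlapped slightly. Nfe2l2 had 11.0 times the TPM of Keap1 in replicate 1 and 14.1 times in replicate 2, against 6.88 and 5.39 times in the second quantification, described below. All of the regulators were higher in replicate 2 on the TPM scale, as expressed protein-coding genes were in general, with a median TPM ratio of 1.73, replicate 2 over replicate 1.

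Gclc and Gclm were near the bottom. Gclc encodes the catalytic subunit of glutamate-cysteine ligase, the enzyme of the first step of glutathione synthesis, and Gclm its modifier subunit. Gss, the enzyme of the second step and not among the 10 genes, stood at 6.58 and 7.69 TPM in replicates 1 and 2. Gclc (ENSMUSG00000032350.9; chromosome 9, 77754535 to 77794485, plus strand) stood at 1.17 TPM in replicate 1 and 2.29 TPM in replicate 2 (1.73 ± 0.792 TPM, SD, n = 2), on 110 and 175 counts. Gclm (ENSMUSG00000028124.15; chromosome 3, 122245557 to 122270732, plus strand) stood at 0.57 and 0.67 TPM in replicates 1 and 2, on only 16 and 45 counts, with wide deposited bounds of 0.478 to 2.35 TPM and 0.725 to 2.38 TPM, the point value of replicate 2 lying below its own lower bound. The authors' posterior mean estimates for Gclm were 1.32 and 1.43 TPM, on the other side of 1 TPM. Whether Gclm passed that line therefore depended on the estimator.

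The thioredoxin arm held a very high and a modest gene. Txnrd1 (ENSMUSG00000020250.10; chromosome 10, 82833951 to 82897712, plus strand) encodes the selenoprotein that recharges thioredoxin with NADPH, and stood at 148 TPM in replicate 1 and 158 TPM in replicate 2 (153 ± 7.07 TPM, SD, n = 2), on 10180 and 11855 counts. It was at the percentile 97.2 of expressed protein-coding genes. Srxn1 encodes sulfiredoxin, which reactivates overoxidised peroxiredoxins (ENSMUSG00000032802.8; chromosome 2, 152105516 to 152111376, plus strand). It stood at 3.38 and 5.52 TPM in replicates 1 and 2 (4.45 ± 1.51 TPM, SD, n = 2), so that Txnrd1 had 43.7 times its TPM in replicate 1 and 28.6 times in replicate 2.

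Hmox1 and Nqo1, the targets most often used as readouts of NRF2, were low. Hmox1 encodes heme oxygenase 1, which breaks heme into biliverdin, iron and carbon monoxide (ENSMUSG00000005413.8; chromosome 8, 75093621 to 75100589, plus strand). It stood at 1.40 TPM in replicate 1 and 1.67 TPM in replicate 2 (1.54 ± 0.191 TPM, SD, n = 2), on 54 and 62 counts, at the percentile 3.49 of expressed protein-coding genes. Its deposited bounds, 1.09 to 2.00 TPM and 1.25 to 2.17 TPM, overlapped almost fully. Nqo1 encodes a quinone reductase (ENSMUSG00000003849.8; chromosome 8, 107388225 to 107403206, minus strand), and it had 0 counts in replicate 1 and 1 count in replicate 2. In the second quantification it had 1 and 2 counts. Nqo1 was thus not detectable above the limit of 3 counts in any of these tables.

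Between the libraries the genes differed in different amounts, and the sign of several differences depended on the scale. Each gene's counts were set against the share expected after TMM scaling in a two-sided exact binomial test (a factor per library that sets most genes equal). It was run with Benjamini-Hochberg adjustment over 14442 genes; a call needed an adjusted p under 0.05 and a 2-fold difference. This compares 2 libraries, not conditions, and its p-values cover counting error only, with no spread between replicates in them. Of 9 genes tested (all but Nqo1) 0 were called, where 7.65% of all tested genes were called higher and 4.2% lower in replicate 2. With DESeq2 size factors 0 of the 9 were called as well. At any fold 7 of the 9 had an adjusted p under 0.05 (8 before adjustment), against 51.8% of all genes, so passing at any fold sets no gene apart from the rest. Nfe2l2 was higher in replicate 2 by 0.71 on the log2 scale (exact binomial test, adjusted p = 6.44e-42) and Bach1 by 0.72 (adjusted p = 1.49e-98, same exact test). Keap1 was higher by 0.51 (exact binomial test, adjusted p = 0.00531) and Gclm by 0.44, which did not pass (exact binomial test, adjusted p = 0.451). The log2 ratio, replicate 2 over replicate 1, was -0.83 for Sqstm1, -0.81 for Txnrd1, -0.83 for Hmox1 (exact binomial test, adjusted p = 0.00680) and -0.35 for Srxn1 (exact binomial test, adjusted p = 0.00732). Gclc, at -0.36, did not pass (exact binomial test, adjusted p = 0.0793). Over the 9 genes the median was -0.35, against -0.07 over expressed protein-coding genes.

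**Figure D2:**
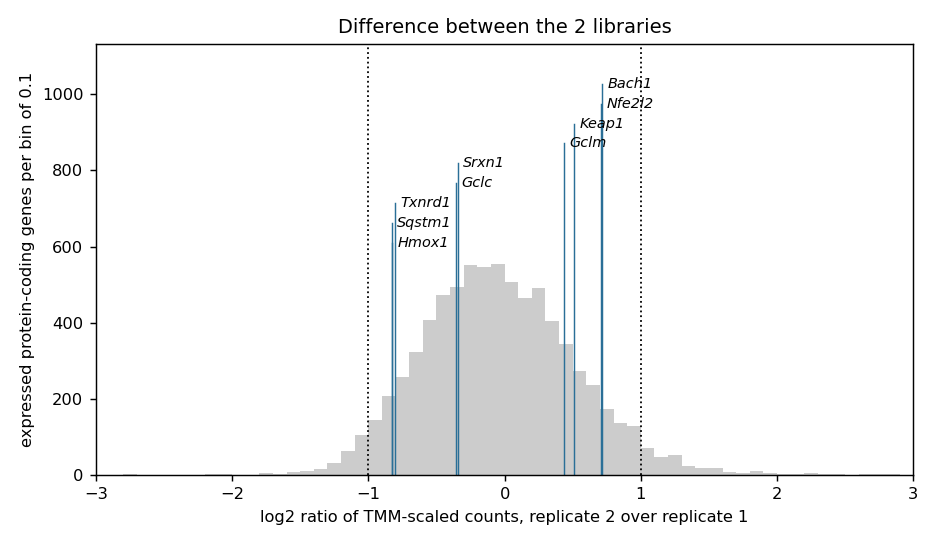
Histogram of the log2 ratio of TMM-scaled counts, replicate 2 over replicate 1 (x axis), over expressed protein-coding genes (y axis, genes per bin of 0.1); vertical blue lines mark the 9 tested genes, their heights serve only to separate the names, and dotted lines mark 2-fold. Hmox1, Sqstm1 and Txnrd1 lay on the left flank, between -0.83 and -0.81, Keap1, Nfe2l2 and Bach1 on the right, between 0.51 and 0.72, and all lay inside the dotted lines.

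Library size only and the second quantification moved the calls, and library size only also reversed the signs of Gclc (0.20) and Srxn1 (0.21). With library size only, the median of expressed protein-coding genes was at 0.49, the calls over all genes split into 3840 higher and 133 lower in place of 1105 and 606, and Nfe2l2 (1.27), Bach1 (1.28) and Keap1 (1.07) were called higher. With the estimated counts of the second quantification the split was 1086 and 1091, and Sqstm1 (-1.10), Hmox1 (-1.13) and Txnrd1 (-1.03) were called lower. A difference relative to the median of expressed protein-coding genes is free of a common factor. On that basis Sqstm1, Txnrd1 and Hmox1 were below the median in replicate 2 relative to replicate 1 in counts and in TPM of both quantifications, at -0.93 to -0.53 on the log2 scale, and Nfe2l2, Bach1 and Keap1 were above it, at 0.44 to 1.10. For Gclm (0.50 in counts and -0.56 in TPM) and Gclc (-0.29 in counts and 0.18 in TPM) the sign depended on the unit. Of the 8 macrophage markers 2 were called lower in replicate 2 by the main test, Csf1r (-1.11) and Itgam (-1.19), and 0 higher, and their part in these differences was not tested. The amount of RNA taken and the depth cannot be told apart from the replicate.

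On the TPM scale much of the signal of the high genes lay on transcripts annotated as noncoding, and less of it did in counts. Transcripts of the class retained intron, spliced forms that keep intron sequence and encode no full protein, carried 68.4% of the TPM of Sqstm1 in replicate 1 and 63.5% in replicate 2 (66.0 ± 3.43%, SD, n = 2). They carried 52.3% and 43.8% of Bach1 (48.0 ± 6.05%) and 41.1% and 40.0% of Txnrd1 (40.5 ± 0.769%, SD, n = 2 each). Over 5233 expressed protein-coding genes that have such a transcript the median share was 45.9% (quartiles 29.4 and 62.5%), so Sqstm1 lay above the upper quartile and Bach1 and Txnrd1 within the middle range. The unit mattered: in expected counts, where long transcripts weigh more, the Sqstm1 share was 25.1% (exact Clopper-Pearson 95% interval 24.2 to 26.1%) in replicate 1 and 20.9% (20.1 to 21.7%) in replicate 2, below the median of 29.3% over the same genes. In counts the share was 25.7 ± 0.891% for Txnrd1 and 24.6 ± 4.44% for Bach1 (SD, n = 2 each), also below that median. In the second quantification the Sqstm1 share was 74.6 ± 0.508% of TPM (SD, n = 2). That of Bach1 was 52.5 ± 2.21% and that of Txnrd1 43.4 ± 2.31% (SD, n = 2 each). The median over the same genes was 44.1% there (quartiles 27.6 and 63.0%). Intervals cover counting error only. Of the 10 genes 5 have such a transcript; for Hmox1 (3.57% and 20.96% in replicates 1 and 2) and Gclm (45.6% and 0%) the share rested on few counts. In chromatin RNA an intron that is retained and an intron not yet removed cannot be told apart by this share.

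Single transcripts show where that signal lay. The short transcript Sqstm1-207 (2 exons, 50205679 to 50207319), of which 362 of 585 bases lie in introns of the coding transcript, had the highest TPM of the gene, 127 in replicate 1 and 95.04 in replicate 2. The other retained intron transcripts lie mostly in its exons, with 84 of 457 bases of Sqstm1-206 and 87 of 582 of Sqstm1-203 in introns. Sqstm1-206 carried 21.7% and 26.3% of the gene's TPM in replicates 1 and 2, and Sqstm1-203 11.1% and 9.60%. Much of the retained intron share of Sqstm1 thus lay on transcripts made mostly of coding transcript exons. The coding transcript Sqstm1-202 (8 exons) had 87.8 and 94.5 TPM, and 54.3% and 54.8% of the gene's counts in replicates 1 and 2. For Nfe2l2, which has 2 annotated transcripts, the noncoding Nfe2l2-202 (2 exons) carried 54.6% of TPM in replicate 1 and 60.2% in replicate 2, and 39.3% and 45.0% of counts. Of its bases 1321 lie within introns of the coding transcript Nfe2l2-201. The second quantification gave Nfe2l2-202 shares of 54.4% and 62.2% of TPM, close to the first. Over 6638 expressed protein-coding genes with any noncoding transcript the median noncoding share was 53.1% of TPM (quartiles 33.4 and 69.8%) and 31.8% of counts, so Nfe2l2 lay within the middle range in TPM. For Keap1 the noncoding Keap1-203 carried 42.5% and 37.0% of TPM but 2.06% and 1.77% of counts in replicates 1 and 2, and 61.5% and 76.9% of TPM in the second quantification, so that share was the least settled. Gclc had 2.07 ± 2.93% of counts on noncoding transcripts, 14.0 ± 19.8% of TPM, and 44.2 ± 14.4% of TPM in the second quantification (SD, n = 2 each). Srxn1 had 0.333 ± 0.471% of counts, 4.62 ± 6.53% of TPM, and 34.9 ± 5.40% of TPM in the second quantification (SD, n = 2 each).

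**Figure D3:**
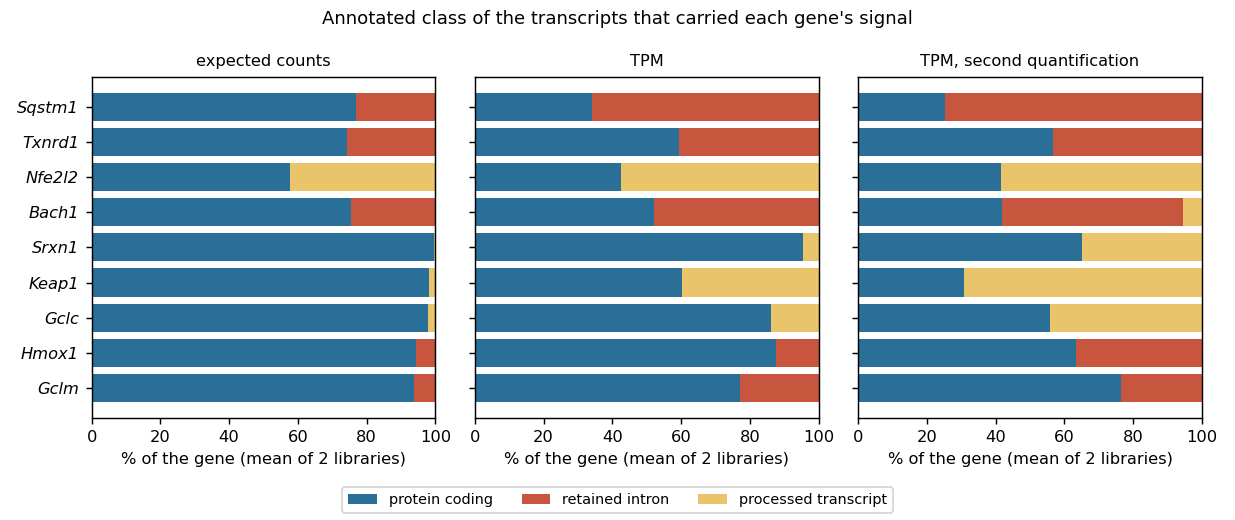
Share of each gene's signal on transcripts of 3 annotated classes (protein coding, retained intron, processed transcript), as the mean of the 2 libraries in percent (x axes), in expected counts, in TPM and in TPM of the second quantification; Nqo1 is left out. Sqstm1 had the largest retained intron share in both TPM panels, and Nfe2l2 had a large processed transcript share in every panel.

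Txnrd1 has several annotated starts, and most of its counts were assigned to the transcripts of the middle ones. The transcripts that start between 82859179 and 82859259, just after the Txnrd1 sequence printed above, held 55.9% of counts in replicate 1 and 57.5% in replicate 2. Those starting between 82860301 and 82860505 held 33.3% and 28.9%. The far upstream start at 82833951, used by Txnrd1-205 alone, held 8.97% and 11.1%, and a downstream start at 82886846 held 1.85% and 2.51%. The second quantification placed more counts at the far upstream start, 22.9% in replicate 1 and 33.4% in replicate 2, and fewer in the first middle group, 39.6% and 33.0%. The coding transcripts of these starts share most of their exons, so their shares rest on the model of each quantification. The retained intron transcript Txnrd1-207 differs, with 2492 of its 3449 bases in introns of the leading coding transcript. It held 22.6% and 20.9% of counts in replicates 1 and 2, most of the share of the starts between 82860301 and 82860505. Whether those counts came from RNA begun at these starts was not tested, and reads unique to a start were not counted. Of the promoter windows at these starts, those of both middle groups hold 1 match each to the loose antioxidant response element core and that of the far upstream start holds 0.

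Overlapping genes limit some values. The sources used here do not say whether counting used strand, so reads of a gene and of an antisense partner cannot be told apart. Of the 10 genes 5 overlap another annotated gene. Gm17494, on the opposite strand, overlaps 14775 bases of Gclm, and had 11.7 and 30.3 counts in replicates 1 and 2 in the gene table but 557 and 1461 in the second quantification. Gclm moved in the same way, with 149 and 389 counts in the second quantification, and 1.90 and 2.41 TPM. Gm16754, antisense to Keap1 over 3317 bases, stood at 0.50 and 1.89 TPM, against 12.3 and 30.6 TPM in the second quantification, where Keap1 itself stood at 2.66 and 11.3 TPM. Eid3 lies wholly inside Txnrd1 on the same strand and stood at 40.1 and 55.1 TPM in replicates 1 and 2. Gm24996, a small nuclear RNA gene inside Nfe2l2, was listed at 0 in the gene tables and at 74.6 and 271 TPM in the second quantification, while Nfe2l2 itself hardly differed between the quantifications (18.3 and 60.7 TPM in the second). Mgat4b, a glycosyltransferase gene that starts 62 bases from Sqstm1 on the opposite strand, stood at 36.0 TPM in replicate 1 and 34.7 TPM in replicate 2. Like Sqstm1 it differed little between libraries in TPM, where the median ratio of expressed protein-coding genes was 1.73, so both were lower in replicate 2 relative to that median.

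The second quantification gave the same leading genes with other distances. Sqstm1 stood at 476 and 505 TPM and Txnrd1 at 161 and 186 TPM in replicates 1 and 2. Bach1 (19.1 and 58.4 TPM) and Nfe2l2 stayed within the spread of the first. Gclc was at 1.63 and 3.64 TPM and Hmox1 at 2.07 and 2.15 TPM, so that Gclm moved above Hmox1, and Keap1 moved above Srxn1 (4.39 and 6.13 TPM), by mean level. In replicate 1, however, Gclm (1.90 TPM) stayed below Hmox1 and Keap1 (2.66 TPM) below Srxn1. The ranges of the libraries overlapped in both pairs, so neither pair differed beyond its spread. The Gclc to Gclm ratio of TPM was 2.05 and 3.42 in replicates 1 and 2 in the gene tables, against 0.856 and 1.51 in the second quantification, so which subunit was higher in replicate 1 depended on the quantification.

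**Figure D4:**
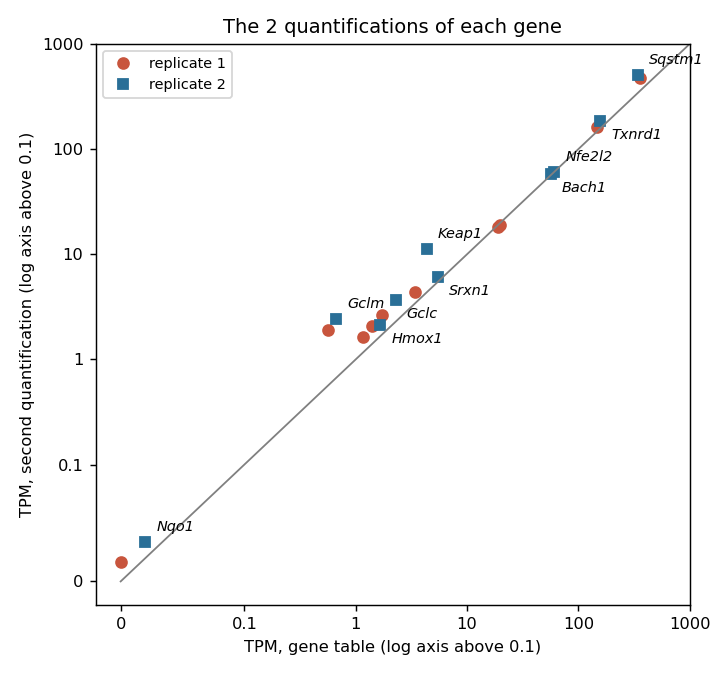
TPM of each gene in the second quantification (y axis) against the gene table (x axis), both logarithmic above 0.1, with circles for replicate 1 and squares for replicate 2; the line marks equal values. Nfe2l2 and Bach1 lay on the line, and Gclm and Keap1 lay farthest above it among genes over 0.1 TPM.

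Other genes of the same pathways were mostly present. Of 104 genes in 7 lists, 82 were at 1 TPM or more in both libraries (34.6% of nuclear protein-coding genes were), and 17 were below 1 TPM in both. In the test between libraries 0 of 97 were called higher in replicate 2 and 4 lower, against the shares of 7.65% and 4.2% over all genes. The split was 1 higher and 3 lower with DESeq2 size factors, 11 and 0 with library size only, and 1 and 10 with the second quantification. None of the calls named below held with library size only. That of Slc11a1, the nearest to 2-fold, did not hold with DESeq2 size factors either. Of the partners of KEAP1 and NRF2, 11 of 14 were expressed, at a list median of 10.3 TPM. The highest were Nfe2l1, a relative of Nfe2l2 (33.1 and 47.8 TPM in replicates 1 and 2), and Mafg, a small MAF partner of NRF2 (34.2 and 46.5 TPM), while Nfe2, the erythroid relative, was below 1 TPM in both. Selective autophagy, the pathway of p62, had 16 of 18 genes expressed, with a median of 10.2 TPM. Its highest were Optn, another receptor for ubiquitin-tagged cargo (52.0 and 85.3 TPM), and Rb1cc1, a subunit of the kinase complex that starts autophagy (37.9 and 71.4 TPM), and only Map1lc3a was below 1 TPM in both.

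In the glutathione list 13 of 17 genes were expressed, and its median was 3.90 TPM. Abcc1, an exporter of glutathione conjugates, stood at 90.9 and 135 TPM in replicates 1 and 2, and Slc3a2, the heavy chain of the cystine transporter, at 47.9 and 85.9 TPM, both far above Gclc and Gclm. Mgst2, Ggt5 and Gsta4 were below 1 TPM in both, though Mgst2 stood at 4.55 and 7.66 TPM in the second quantification. Gstm1 was called lower in replicate 2 (log2 ratio -1.13, exact binomial test, adjusted p = 1.78e-06). Of the thioredoxin and peroxiredoxin genes 11 of 16 were expressed, and the median was 1.85 TPM, with Prdx5 (30.5 and 44.4 TPM) and Prdx1 (22.7 and 36.2 TPM), peroxidases that depend on thioredoxin, the highest. Txnrd3, Sesn2, Sesn3 and Prdx3 were below 1 TPM in both, but Sesn3 stood at 4.46 and 13.4 TPM in the second quantification. Txnrd1 thus exceeded every gene of that list by mean TPM.

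In the heme and iron list 14 of 15 genes were expressed, and the list median was 6.30 TPM. The ferritin genes led: Fth1, the heavy chain, stood at 184 and 298 TPM and Ftl1, the light chain, at 109 and 92.9 TPM in replicates 1 and 2, against the low level of Hmox1, whose product frees the iron that ferritin stores. Ftl1 (log2 ratio -1.14, exact binomial test, adjusted p = 2.73e-126) and the iron transporter gene Slc11a1 (-1.02, exact binomial test, adjusted p = 1.52e-74) were called lower in replicate 2, and Pir was below 1 TPM in both. Genes of NADPH supply and detoxification numbered 8 expressed of 12, with a median of 2.04 TPM, and the highest were Pgd, of the pentose phosphate pathway (30.9 and 43.5 TPM), and Ugdh, which makes UDP-glucuronate (10.3 and 36.6 TPM). Taldo1 was called lower (-1.45, exact binomial test, adjusted p = 4.00e-06), and Nqo2, Cbr1, Ephx1 and Me1 were, like Nqo1, below 1 TPM in both. The direction for Taldo1 depended on the quantification. It stood at 2.12 and 1.68 TPM in replicates 1 and 2 in the gene tables, against 5.98 and 13.5 TPM in the second quantification. The list of superoxide, peroxide and NADPH oxidase genes had the highest median, 27.8 TPM, with 9 of 12 expressed. Cybb, the catalytic subunit of the phagocyte NADPH oxidase, stood at 205 and 493 TPM in replicates 1 and 2 and Sod2, the mitochondrial superoxide dismutase, at 210 and 334 TPM, while the non-phagocyte oxidase genes Nox1, Nox4 and Duox2 were below 1 TPM in both. In the second quantification Nox4 stood at 2.68 and 5.17 TPM.

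**Figure D5:**
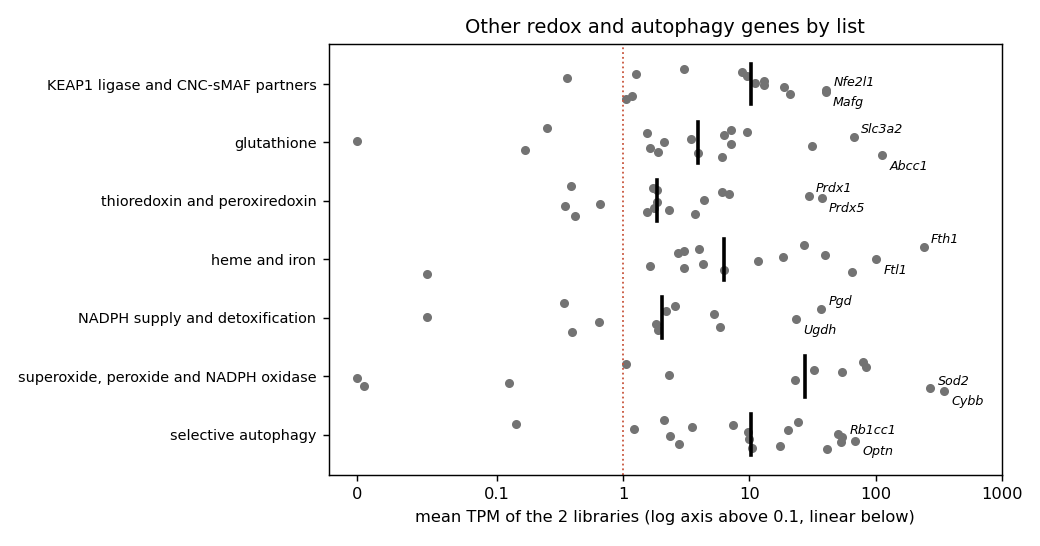
Mean TPM of the 2 libraries (x axis, logarithmic above 0.1 and linear below) for 104 genes in 7 lists; each point is a gene, black bars are list medians, the dotted line is 1 TPM and the highest genes of each list are named. The superoxide, peroxide and NADPH oxidase list had the highest median, 27.8 TPM, and the thioredoxin and peroxiredoxin list the lowest, 1.85 TPM.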

How the data were processed

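For each library the authors deposited estimated (expected) counts and TPM per gene and per transcript, derived from reads aligned to the mm10 transcriptome (GENCODE M21), per the deposited text, and interval bounds of each TPM, treated here as a score, per the file headers. A second deposited transcript table of estimated counts and TPM came from the reads and an index; it was summed over genes. The sources used here give no aligner, quantifier, version or strand setting. The 26345 rows that name no gene held 0.409% and 0.277% of counts in replicates 1 and 2 and were left out. A chi-square of 489 per degree of freedom between the libraries showed no duplicate. Expected counts were rounded for the exact binomial test (SciPy 1.17.1), scaled by TMM (edgeR 4.0.16; factors 0.824 and 1.21), for genes whose counts summed to 20 or more; with no residual degrees of freedom no dispersion was fitted. The test was checked only on data simulated with counting error alone, which cannot show how it behaves with spread between replicates. All 10 genes are named; from each list the highest 2 by mean TPM, those below 1 TPM in both libraries and those called are named. The genes and lists were chosen with earlier results of these data known. Alternatives were the second quantification, DESeq2 1.42.0 size factors, library size, count and TPM minimums, pseudocounts of 1 and 0.1, and leaving out a library. Promoter sequences are from RefSeq (GRCm38.p6).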

Additional observations from a re-analysis of the deposited data

How the results depend on the processing

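The median level of the 10 genes, 3.74 TPM, was 6.11 TPM with the second quantification and 19.0 TPM with TPM rescaled within protein-coding genes. At a minimum of 5 TPM 4 of the 10 genes and 48 of the 104 listed genes were expressed. Of the 10 places in the order 6 were kept with the second quantification, and 6 to 10 when a library was left out. Calls between libraries numbered 3 among the 10 genes, in place of 0, both with library size only and with the second quantification counts, and 11 among the listed genes, in place of 4, but in opposite directions: 11 higher and 0 lower in replicate 2 with library size only, and 1 and 10 with the second quantification, against 0 and 4. With DESeq2 size factors 0 of the 9 tested genes were called. Changing the count minimum leaves each log2 ratio as it is, all under 2-fold, so it could not add a call for them. None was called with no minimum (10 tested) or a summed count of 100 or more (8 tested). The log2 difference changed sign with library size only for Gclc (0.20) and Srxn1 (0.21); as TPM + 1 it was 0.15 for Hmox1, 0.60 for Gclc, 0.094 for Txnrd1 and 0.57 for Srxn1, and as TPM + 0.1 it was 0.24, 0.91, 0.094 and 0.69 for the same genes. The median retained intron share, 40.5%, was 23.0% in counts and 40.0 to 45.6% when a library was left out. The median noncoding share, 39.7%, was 6.19% in counts and 44.2% with the second quantification, alternatives chosen after seeing the data. The leading transcript was the same for 6 of the 10 genes in counts. Among values of single genes, 30 of 50 levels and 14 of 20 retained intron shares moved by no more than the spread. Of 62 differences, 41 kept their sign and stayed under 2-fold, 10 changed sign and 11 reached 2-fold. Leaving out 1 of 2 libraries cannot move a mean by more than its SD, so those settings could not fail for levels and shares. The 9 differences with no count minimum and the 8 with a summed count of 100 or more could not fail either. With the second quantification 7 of the 10 levels moved, and all 10 did with TPM rescaled within protein-coding genes. With posterior mean TPM 2 levels moved higher and 1 lower. Of the retained intron shares 3 moved and 2 did not, both in counts and with the second quantification. The cause of these shifts was not tested, apart from the common factor given beside the scalings. No paired analysis was possible because there is 1 group. Depth limits Nqo1, Gclm and Hmox1, which rest on 0 to 62 counts a library, and 2 libraries limit every SD.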
